A study of Homo sapiens with 7 samples.

Results

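The 9 genes described here encode proteins that carry glutamine into the cell (SLC1A5, SLC38A1 and SLC38A2), take it apart or make it (GLS2 and GLUL), and pass its carbon and nitrogen on (GLUD1, GOT1, GOT2 and OGDH). They were listed by name, because kidney cells raise glutamine breakdown in acid, and with earlier results of these data known. All 9 were found among the 19978 genes of the deposited table, and all 9 passed the filter on low counts, which left 14863 genes for testing. In HEK-293 cells kept in acidified medium, 4 of them were lower than in control (SLC1A5, OGDH, GLS2 and SLC38A2), 4 were higher (GOT2, GLUL, SLC38A1 and GLUD1), and GOT1 did not pass the test, in a comparison where 34.2% of all genes tested were lower and 32.5% higher. Of the 4 that were higher, GLUL, SLC38A1 and GLUD1 were lower when the libraries were scaled by their total counts alone. GOT2 did not pass with that scaling (log2 fold change 0.05), so none of the 4 then passed as higher.

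Glutamine is the most abundant free amino acid in blood and carries nitrogen between organs. Inside the cell a glutaminase removes its amide nitrogen as ammonia and leaves glutamate, which glutamate dehydrogenase or the transaminases turn into 2-oxoglutarate, a fuel of the citric acid cycle. The proximal tubule of the kidney is known for running this route faster in metabolic acidosis, which yields ammonium for the urine and bicarbonate for the blood, and glutamine synthetase runs the opposite reaction, making glutamine from glutamate and ammonia.

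The data are poly(A)-selected RNA sequencing of HEK-293, an established line of transformed human embryonic kidney cells with no introduced mutation named in the labels. Control cells (n = 2) were kept at pH 7.4 with DMSO, acidosis cells (n = 3) at pH 6.6 with DMSO, and SRPIN340 cells (n = 2) at pH 7.4 with DMSO and 10 µM SRPIN340, an inhibitor of the kinases that phosphorylate SR splicing factors, each for 48 h. The medium in which the cells of all 7 samples were grown before treatment held 2 mM glutamine, 10% serum and penicillin with streptomycin. Samples of a group are described as biological repeats. Every replicate pair differed by more than sampling noise, which does not tell biological repeats from repeated libraries of the same cells.

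Levels are given as CPM, the counts of a gene divided by the library's total after TMM scaling and put on a common library size. Estimated counts summed to between 21788457 and 24110460 in the control and SRPIN340 samples and to between 13615816 and 21370143 in the acidosis samples. The 100 most abundant genes took 24.1% to 24.8% of the counts in acidosis and 15.2% to 15.4% in the other samples. The TMM factors were 0.782 to 0.80 in acidosis against 1.17 to 1.21 elsewhere. How much of this gap those genes account for was not tested. Fits without the factors were run as an alternative, but which of the 2 scalings is nearer to the true levels was not tested. Values scaled by total counts alone are given where they differ in direction or call. The line's markers KRT8, KRT18, VIM, NEFL, NEFM and LHX1 were present in all samples, and PAX2 was low, at 6.48 to 7.05 CPM in control and 1.20 to 2.46 CPM in acidosis. Of the proximal tubule markers, LRP2 was present (35.9 to 47.8 CPM), whereas SLC34A1 reached at most 1.03 estimated counts in a sample and AQP1 at most 2.02 CPM, and UMOD and AQP2 were at 0 throughout. In bulk RNA, fewer cells expressing a gene and less of its RNA per cell cannot be told apart.

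Promoter sequence was at hand from RefSeq (GRCh38.p14) for 8 of the 9 genes, OGDH being the other. Shown here are the 250 bases before the start of SLC1A5 (chr19:46788595-46788844, minus strand) and GLS2 (chr12:56488162-56488411, minus strand), the members with the largest falls among those with an entry, and of GOT1 (chr10:99430625-99430874, minus strand), the only member whose window held one of the motifs searched. Each is written 5′ to 3′ on the strand of the gene, and capitals mark the motif.
SLC1A5: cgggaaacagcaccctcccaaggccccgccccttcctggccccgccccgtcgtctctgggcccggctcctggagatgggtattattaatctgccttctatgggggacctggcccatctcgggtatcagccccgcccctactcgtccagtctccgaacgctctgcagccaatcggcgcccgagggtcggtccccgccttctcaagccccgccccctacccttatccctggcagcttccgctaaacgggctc
GLS2: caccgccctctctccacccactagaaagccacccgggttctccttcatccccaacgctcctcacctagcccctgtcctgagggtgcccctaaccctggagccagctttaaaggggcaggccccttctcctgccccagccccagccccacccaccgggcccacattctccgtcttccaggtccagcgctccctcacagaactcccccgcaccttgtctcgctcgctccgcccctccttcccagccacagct
GOT1: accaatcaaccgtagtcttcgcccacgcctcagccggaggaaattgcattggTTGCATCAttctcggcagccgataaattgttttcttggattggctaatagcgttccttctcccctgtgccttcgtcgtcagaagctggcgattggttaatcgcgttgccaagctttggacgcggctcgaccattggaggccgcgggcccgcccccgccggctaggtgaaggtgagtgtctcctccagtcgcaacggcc
The motifs searched on both strands were the core of the C/EBP-ATF composite element bound by ATF4 (TGATGNAA), the E-box (CACGTG) and the AP-1 site (TGANTCA), none of which contains another. The GOT1 match, TTGCATCA, is the minus-strand reading of the first motif and begins 198 bases before the start. The share of 35116 RefSeq promoters with each motif in the same window was 3.14% for the first, 6.34% for the E-box and 6.57% for the AP-1 site, and none of the 8 members held either of the latter. The window of SLC38A1 was taken before a RefSeq start 1056 bases from the canonical GENCODE start. A match is a string of letters and not a bound site.

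The carriers that bring glutamine in moved in different directions in acidosis. SLC1A5 (ENSG00000105281.12, chr19:46774883-46788594, minus strand, GRCh38), also called ASCT2, exchanges glutamine for other neutral amino acids with sodium. Its normalized level was 175 and 195 CPM in control, 166 and 164 CPM with SRPIN340, and 51.0, 48.9 and 49.6 CPM in acidosis. All 3 acidosis samples lay below every other sample, and the groups did not overlap. All genes were tested with edgeR's quasi-likelihood test, and its p-values were adjusted over all genes tested by the Benjamini-Hochberg method. In that test SLC1A5 was 3.72-fold lower in acidosis than in control (log2 fold change -1.89, SE 0.0744, adjusted p = 3.95e-08), the largest change among the 9, and 7.15% of all genes tested had a lower fold change.

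SLC38A2 (ENSG00000134294.14, chr12:46358188-46372773, minus strand), or SNAT2, takes up glutamine and other small neutral amino acids with sodium and is known to be induced when amino acids run short. It was at 295 and 331 CPM in control, 345 and 399 CPM with SRPIN340, and 225, 226 and 205 CPM in acidosis. The acidosis samples were again the lowest 3 of the 7. SLC38A2 fell in acidosis (log2 fold change -0.52, SE 0.0849, adjusted p = 0.000403 by edgeR), a 1.43-fold change.

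SLC38A1 (ENSG00000111371.16, chr12:46183063-46270017, minus strand), or SNAT1, is its neighbour on the chromosome and a carrier of the same family. Its level was 201 and 195 CPM in control, 250 and 257 CPM with SRPIN340, and 246, 249 and 235 CPM in acidosis. Both controls lay below the 5 treated samples, and the SRPIN340 and acidosis samples did not overlap either, the former lying just above. Against control, SLC38A1 was higher in acidosis (log2 fold change 0.30, SE 0.0615, adjusted p = 0.00179 by edgeR), but with total counts as the only scaling it was lower (-0.28, adjusted p = 0.00265).

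**Figure D1:**
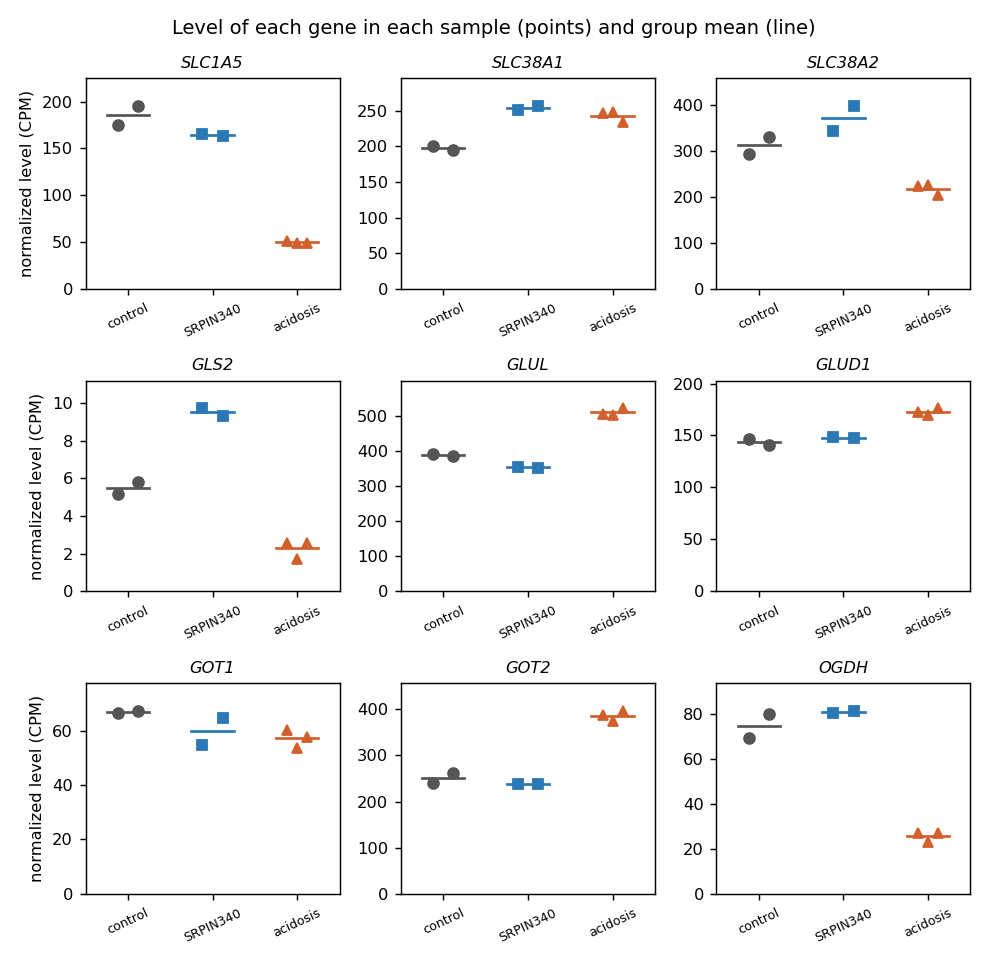
Normalized level (CPM, axes from 0) of the 9 genes in each of the 7 samples. Points are samples (circles control, squares SRPIN340, triangles acidosis) and lines are group means; SLC1A5, GLS2 and OGDH are lowest and GOT2 and GLUL highest in all 3 acidosis samples.

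GLS2 (ENSG00000135423.13, chr12:56470944-56488414, minus strand) encodes the liver-type glutaminase, which frees ammonia from glutamine in the mitochondrion. It was scarce, at 5.18 and 5.79 CPM in control, 9.72 and 9.29 CPM with SRPIN340 and 2.57, 1.74 and 2.57 CPM in acidosis, or 19.0 to 264 estimated counts a sample. The 3 groups did not overlap, with SRPIN340 highest and acidosis lowest. GLS2 fell in acidosis by 1.25 on the log2 scale, or 2.37-fold (SE 0.228, 95% interval -1.76 to -0.73, adjusted p = 0.000844, edgeR). In the GENCODE transcripts 8.32% of its 31-base words also occur in an overlapping gene of the same strand, ENSG00000285528, which was listed at no more than 0.255 CPM, and SPRYD4, which overlaps GLS2 on the opposite strand, was higher in acidosis (log2 fold change 0.52).

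GLUL (ENSG00000135821.19, chr1:182378098-182392206, minus strand) encodes glutamine synthetase, the enzyme that makes glutamine. Its level was 390 and 385 CPM in control, 354 and 352 CPM with SRPIN340, and 506, 503 and 521 CPM in acidosis. The 3 acidosis samples were the highest of the 7. GLUL was higher in acidosis by a log2 fold change of 0.40 (SE 0.0544, adjusted p = 0.000126, edgeR), but lower with total counts alone (-0.18, adjusted p = 0.0108).

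GLUD1 (ENSG00000148672.10, chr10:87050202-87094843, minus strand), the mitochondrial glutamate dehydrogenase, releases ammonia from glutamate. It stood at 146 and 141 CPM in control, 149 and 147 CPM with SRPIN340, and 172, 170 and 176 CPM in acidosis, again with the acidosis samples highest. The difference from control was a log2 fold change of 0.27 (SE 0.0633, adjusted p = 0.00431, edgeR), and with total counts alone it was -0.31 (adjusted p = 0.00119). Of its 31-base words 32.7% are shared with GLUD2, a coding copy without introns that was listed at no more than 0.293 CPM, so reads of either could be split between them.

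The aspartate transaminases GOT1 and GOT2, which exchange the amino group of glutamate with aspartate in the cytosol and the mitochondrion, did not move together. GOT2 (ENSG00000125166.13, chr16:58707131-58734342, minus strand), the mitochondrial form, was at 240 and 262 CPM in control, 238 and 237 CPM with SRPIN340, and 387, 375 and 397 CPM in acidosis. All 3 acidosis samples exceeded the other 4. GOT2 rose 1.54-fold in acidosis (log2 fold change 0.62, SE 0.064, adjusted p = 1.75e-05, edgeR), the largest increase among the 9, whereas with total counts alone the log2 fold change was 0.05 and did not pass (adjusted p = 0.527).

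GOT1 (ENSG00000120053.12, chr10:99396870-99430624, minus strand), the cytosolic form, was at 66.6 and 67.3 CPM in control, 54.7 and 64.6 CPM with SRPIN340, and 60.2, 53.8 and 57.7 CPM in acidosis. The acidosis samples were below the controls and overlapped the SRPIN340 samples. Its log2 fold change in acidosis was -0.225 (95% interval -0.446 to -0.00292) and did not pass (adjusted p = 0.0685, edgeR), although it did in a fit of the control and acidosis samples alone (adjusted p = 0.0443) and with total counts alone (-0.80, adjusted p = 4.51e-05). The per-length ratio of GOT2 to GOT1 was 2.95 and 3.18 in control, 3.55 and 3.00 with SRPIN340, and 5.26, 5.70 and 5.62 in acidosis.

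OGDH (ENSG00000105953.16, chr7:44606572-44709066, plus strand) encodes the first subunit of the oxoglutarate dehydrogenase complex, which oxidizes 2-oxoglutarate, also that made from glutamine, within the citric acid cycle. Its level was 69.3 and 80.1 CPM in control, 80.4 and 81.4 CPM with SRPIN340, and 26.9, 23.3 and 27.2 CPM in acidosis. The acidosis samples lay far below the other 4, which were close to one another. OGDH fell 2.89-fold in acidosis (log2 fold change -1.53, SE 0.104, adjusted p = 1.07e-06, edgeR). Beside GLUD1, which feeds it, its per-length ratio was 0.373 and 0.446 in control, 0.425 and 0.435 with SRPIN340, and 0.123, 0.108 and 0.122 in acidosis.

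Counted over the 9 genes, 4 were higher in acidosis at an adjusted p under 0.05, where 32.5% of all genes tested were, and 4 were lower, where 34.2% of all genes were. None of the 9 was higher with a log2 fold change over 1 (14.4% of all genes), and 3 were lower by more than 1 (SLC1A5, OGDH and GLS2), against 19.1% of all genes. Control and acidosis samples did not overlap for any of the 9, which held for 76.5% of all genes. In a table where so many genes passed, these counts are not a result about the 9 as a group. The median log2 fold change of the 9 was -0.22, and of all genes -0.052, while the median size of the change was 0.52 for the 9 and 0.74 for all genes.

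With total counts as the only scaling, the median of all genes moved to -0.63, the share of higher genes among those passing went from 48.8% to 22.8%, and 8 of the 9 members passed as lower and none as higher. Against that shifted median GLUD1, GLUL, SLC38A1 and GOT2 still stood higher and GOT1 lower. SLC1A5, SLC38A2, GLS2 and OGDH were lower and passed in every alternative fit.

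**Figure D2:**
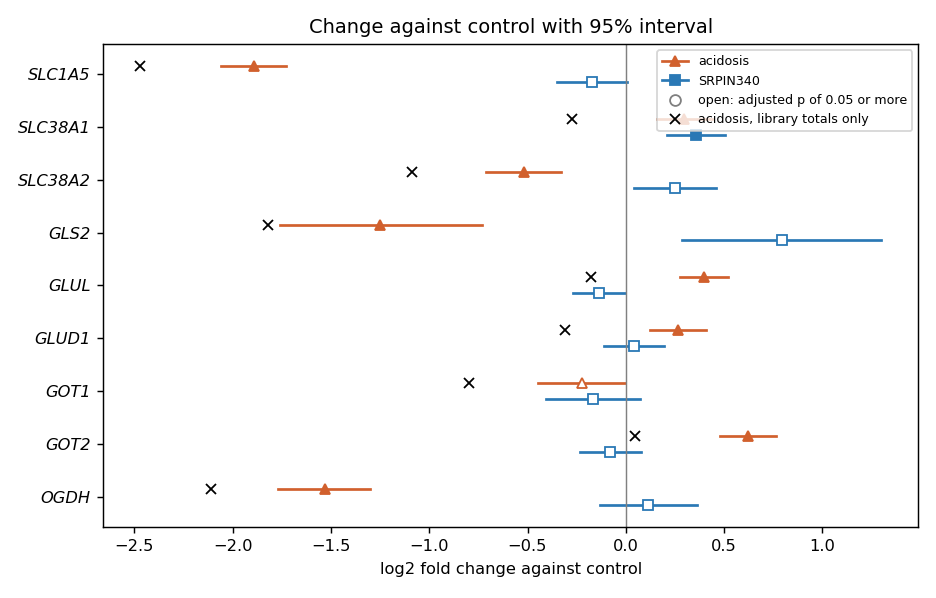
Log2 fold change against control (horizontal axis) of the 9 genes, with the 95% interval, for acidosis (triangles) and SRPIN340 (squares); open symbols did not pass and crosses give acidosis with library totals as the only scaling. SLC1A5 (-1.89), OGDH (-1.53) and GLS2 (-1.25) lie left of -1 in acidosis, and the crosses of GLUL, GLUD1 and SLC38A1 lie on the other side of 0 from their triangles.

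With SRPIN340, SLC38A1 was the one gene of the 9 to pass. It was 1.28-fold higher than in control (log2 fold change 0.36, SE 0.0665, adjusted p = 0.0329, edgeR), which 0.767% of all genes were at that threshold, and no member was lower, where 1.53% of all genes were. None was higher by more than 1 log2 unit, as 0.128% of all genes were. The call was lost without any 1 of the 4 samples (adjusted p = 0.115 to 0.276). The SRPIN340 and control samples did not overlap for any of the 9, 5 higher and 4 lower, while 54.1% of all genes did not overlap.

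GLS2 had the largest fold change of the 9 with SRPIN340, 1.73-fold higher, at a log2 fold change of 0.79 (95% interval 0.285 to 1.30). It did not pass in the fit of all 7 samples (adjusted p = 0.11, edgeR) and passed in a fit of the 4 control and SRPIN340 samples alone (adjusted p = 0.0434). For the other 7 the log2 fold changes lay between -0.17 (SLC1A5) and 0.25 (SLC38A2), and none passed. The median size of the change was 0.17 for the 9 and 0.18 for all genes.

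Set directly against SRPIN340, acidosis gave higher levels of 3 members (GOT2, GLUL and GLUD1), where 32.8% of all genes were higher, and lower levels of 4 (SLC1A5, OGDH, GLS2 and SLC38A2), where 35.0% were lower. GLS2 was 4.11-fold lower in acidosis (log2 fold change -2.04, SE 0.224, adjusted p = 2.58e-05, edgeR), and with SLC1A5 (-1.72) and OGDH (-1.65) it was 1 of 3 lower by more than 1, against 19.7% of all genes. GLUL (0.53) and GLUD1 (0.22) reversed to -0.083 and -0.39 with total counts alone, and GOT2 (0.70) no longer passed (0.086, adjusted p = 0.235, edgeR). SLC38A1 passed as higher than control under both treatments in the fit of all 7 samples, but neither result held in every alternative. Between the treatments it did not differ detectably (log2 fold change -0.06, 95% interval -0.196 to 0.077). With total counts alone it was lower in acidosis than with SRPIN340 (-0.67, adjusted p = 6.17e-06, edgeR). The interval of GOT1 was -0.282 to 0.164, and with total counts alone it too was lower (-0.67, adjusted p = 0.000148, edgeR).

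Levels between genes are comparable per transcript length only, here as CPM per kb of the canonical transcript (mean ± SD). Which transcripts the cells used was not checked, so the order of the genes is approximate. In control GOT2 was the most abundant, at 104 ± 6.36, followed by SLC38A2 (65.3 ± 5.38) and SLC1A5 (64.3 ± 4.96), whose samples overlapped. GLUL (51.3 ± 0.497), GLUD1 (43.6 ± 1.06), GOT1 (33.8 ± 0.237), SLC38A1 (24.4 ± 0.556), OGDH (17.8 ± 1.81) and GLS2 (2.30 ± 0.183) came next in order, each below the lowest sample of the one before.

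In acidosis the order changed: GOT2 (160 ± 4.51) was followed by GLUL (67.5 ± 1.27), GLUD1 (52.4 ± 0.922) and SLC38A2 (45.5 ± 2.43). SLC38A1 (30.0 ± 0.927) and GOT1 (28.9 ± 1.64) overlapped, and SLC1A5 (17.3 ± 0.371), OGDH (6.15 ± 0.526) and GLS2 (0.961 ± 0.201) came last.

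The ratios between the carriers were also taken within each sample. Their size depends on the canonical lengths used, 8097 nt for SLC38A1 and 2882 nt for SLC1A5, and their change between groups does not. Without division by length, the control means were 198 CPM for SLC38A1 and 185 CPM for SLC1A5. SLC38A1 was at 0.409 and 0.355 times the per-length level of SLC1A5 in control, 0.538 and 0.559 times with SRPIN340, and 1.72, 1.81 and 1.69 times in acidosis. SLC38A2 was at 1.01 and 1.02 times SLC1A5 in control, at 1.25 and 1.47 times with SRPIN340, and at 2.65, 2.77 and 2.49 times in acidosis. Between the related carriers, SLC38A2 was at 2.48 and 2.87 times SLC38A1 in control, 2.33 and 2.62 times with SRPIN340, and 1.54, 1.53 and 1.47 times in acidosis.

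**Figure D3:**
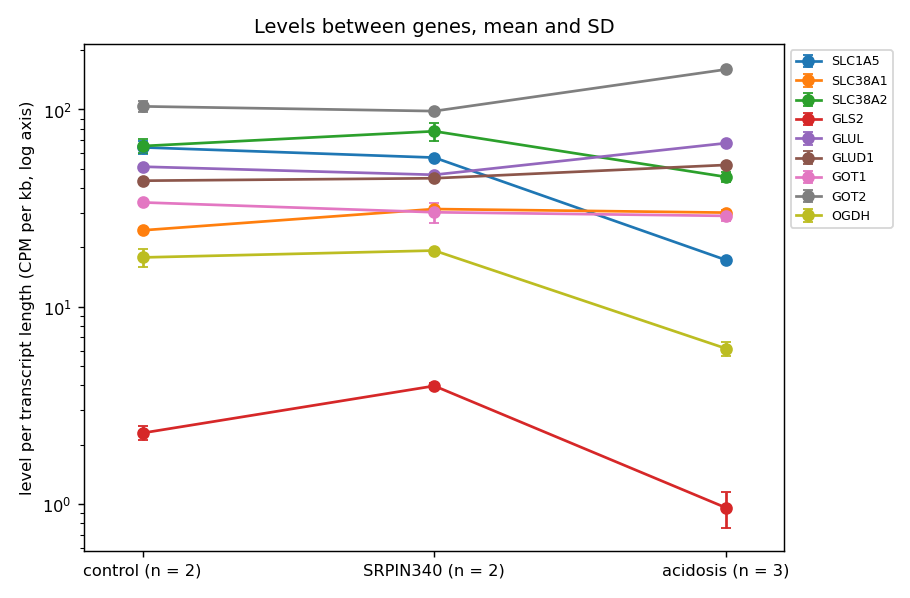
Level per transcript length (CPM per kb, log axis) of the 9 genes in control, SRPIN340 and acidosis; points are means and bars are SD (n = 2, 2 and 3). SLC1A5 goes from 64.3 in control to 17.3 in acidosis and GOT2 from 104 to 160.

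**Figure D4:**
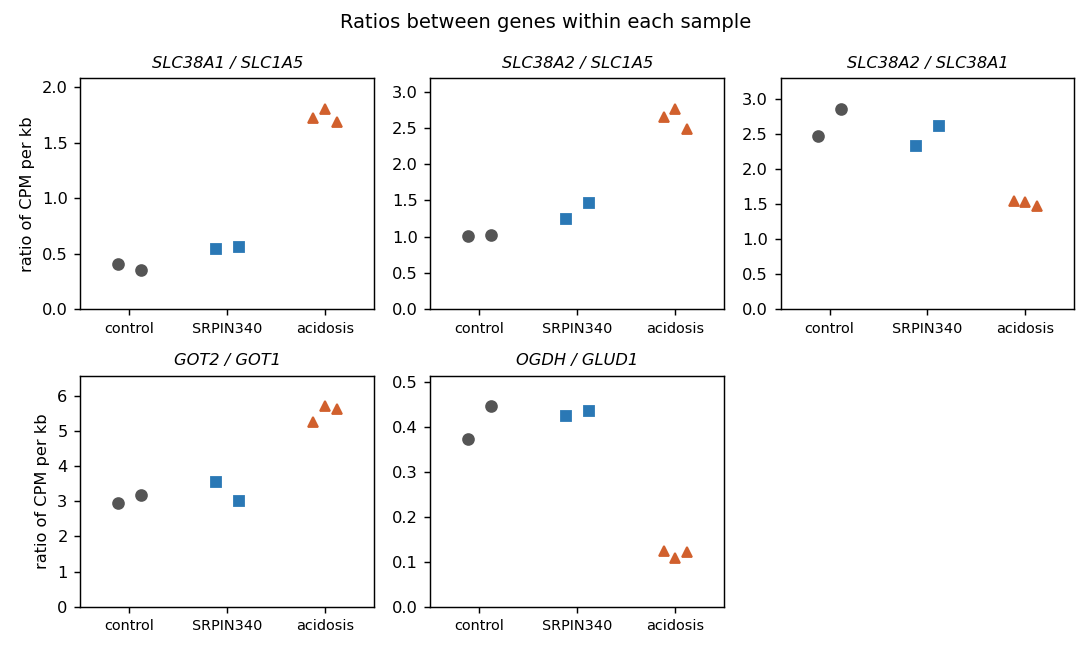
Ratio of per-length levels of pairs of genes within each sample (vertical axes from 0, no unit), 1 point a sample. The acidosis samples are apart from the other 4 in each of the 5 ratios, SLC38A1 to SLC1A5 reaching 1.69 to 1.81.

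The members sit among 93 other listed genes of glutamine and glutamate handling, of which 80 could be tested. In acidosis 30 of these were higher, 29 lower, and 21 did not pass, with a median log2 fold change of -0.13. More than 1 log2 unit higher were 7 and lower were 17. Over all genes tested 32.5% were higher and 34.2% lower, 14.4% and 19.1% by more than 1 log2 unit, so that nothing particular to the lists is read from these counts. With SRPIN340 3 were higher and none lower at an adjusted p under 0.05 (DESeq2 called 6 and 4), against the 0.767% and 1.53% of all genes above. By the 6 groups the lists hold, 3 of 14 tested carriers of glutamine and neutral amino acids were higher and 6 lower. So were 2 and 4 of 10 carriers of glutamate, aspartate and oxoglutarate, 5 and 3 of 11 amidotransferases, and 6 and 7 of 16 enzymes that use glutamate. The list of OGDH partners and the citric acid cycle, which also holds cytosolic enzymes beside the cycle, had 13 higher and 8 lower of 27. Of 2 related genes, 1 was higher (ELAVL1) and 1 lower (CRYZ).

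Among the carriers, the 2 chains of the LAT1 exchanger, which trades internal glutamine for leucine and other large amino acids, rose together in acidosis. SLC3A2, the heavy chain, went from 62.9 and 72.0 CPM in control to 429, 360 and 449 CPM (log2 fold change 2.61, SE 0.111, adjusted p = 6.07e-08), and SLC7A5, the light chain, from 36.1 and 37.6 to 137, 129 and 132 CPM (1.85, SE 0.081, adjusted p = 7.32e-08, both edgeR). The lysosomal glutamine carrier SLC38A7 fell (log2 fold change -1.70), as did SLC7A11 (-1.29), which exports glutamate for cystine, and the mitochondrial dicarboxylate carrier SLC25A10 (-1.18). The glutamate and aspartate carrier SLC1A3 rose (1.39).

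ASNS, which makes asparagine with nitrogen from glutamine, was the amidotransferase with the largest change, from 65.9 and 75.7 CPM in control to 113 and 119 CPM with SRPIN340 and 302, 323 and 285 CPM in acidosis. It passed in both comparisons (log2 fold change 2.10, adjusted p = 6.47e-08 in acidosis, and 0.71, adjusted p = 0.00794 with SRPIN340, edgeR). The branched-chain transaminase BCAT1 also passed in both (1.19 and 0.57), and GFPT2, of hexosamine synthesis, passed with SRPIN340 (1.12, adjusted p = 0.0481). The SRPIN340 calls held in 7 of 10 alternatives for ASNS, 5 for BCAT1 and 4 for GFPT2. CTPS2, which makes CTP, fell in acidosis (-1.89), as did GCLM of glutathione synthesis (-1.39).

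In the list with the partners of OGDH, IDH1, the cytosolic isocitrate dehydrogenase that makes 2-oxoglutarate, was at 119 and 111 CPM in control. It was at 12.5, 15.3 and 13.3 CPM in acidosis, an 8.43-fold fall (log2 fold change -3.08, SE 0.101, adjusted p = 1.65e-08, edgeR). DLD, the third subunit of the OGDH complex, fell 3.00-fold, and MDH2, the mitochondrial malate dehydrogenase, rose 2.68-fold. DLST, another partner of OGDH, was not picked by the rule for named genes. It was at 81.1 and 77.8 CPM in control and 74.5, 68.6 and 62.6 CPM in acidosis. PCK1, the cytosolic PEP carboxykinase of glucose synthesis, was chosen after its values were seen, being below the level set for named genes: it was at 1.26 and 0.344 CPM in control and 9.46, 8.45 and 8.10 CPM in acidosis (log2 fold change 3.42, adjusted p = 1.84e-04, edgeR). Its mitochondrial counterpart PCK2 was also chosen after its values were seen, not being among the 3 largest changes of its list. PCK2 went from 14.3 and 16.3 CPM in control to 7.38, 6.66 and 6.09 CPM in acidosis (log2 fold change -1.18, adjusted p = 1.07e-04, edgeR).

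**Figure D5:**
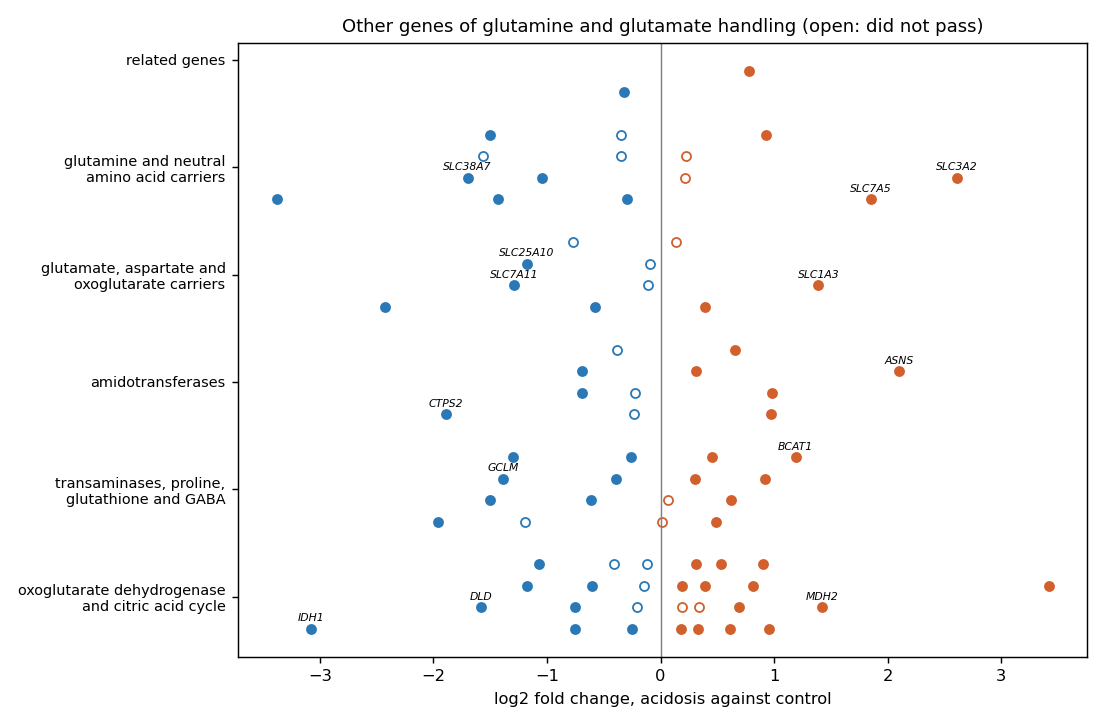
Log2 fold change in acidosis against control (horizontal axis) of the 80 tested genes of glutamine and glutamate handling other than the 9, by list; filled points passed and named points were chosen by rule. Each list holds genes on both sides of 0, from IDH1 at -3.08 to SLC3A2 at 2.61 among those named.

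By the distance between log2 levels over the 7 samples, each set to its control mean, the profile of SLC1A5 was nearest to those of NCAPH (distance 0.123), ZMIZ1 (0.17) and SAMM50 (0.183), among 10118 genes compared. That of GOT2 was nearest to CCT4 (0.0856), REXO2 (0.0912) and ZNF558 (0.0938). With 7 samples in 3 groups, these genes are alike mainly in their 2 differences from control.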

How the data were processed

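The authors trimmed the reads with Trimmomatic 0.39 and Trim Galore 0.6.6, quantified transcripts with Salmon 1.5.1 against Gencode transcripts of GRCh38.p13, and deposited estimated counts per gene from tximport, with no scaling between samples. The tximport option is not given in the sources used here, so division by transcript length is approximate. The fits had no term for transcript length, and how far a change in the transcripts used bears on the fold changes was not tested. The rounded counts were then fitted in edgeR 4.0.16 (R 4.3.3, with filterByExpr, TMM, glmQLFit and glmQLFTest), all 7 samples in one fit with group as the term. A gene passed at a Benjamini-Hochberg adjusted p under 0.05 over the 14863 genes tested. DESeq2 1.42.0 was an alternative. CPM are TMM-scaled. The members and lists were chosen with earlier results of these data known. Named pathway genes were up to 3 a list with the largest change in acidosis past a log2 fold change of 1, no overlap between the groups and 10 CPM or more on average, and all that passed with SRPIN340. On simulated counts edgeR recovered 78.6% of genes changed by 1 log2 unit in acidosis against control. The simulation left 14663 of 14863 genes unchanged, unlike these data, so it says nothing about the scaling between samples. Coordinates are from GENCODE, and the strand setting of the counting is not given in the sources used here. Precision rests on the samples per group. 1 gene of the lists is not reported here and was left out of their counts.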

Additional observations from a re-analysis of the deposited data

How the results depend on the processing

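With library totals only, members higher and lower in acidosis numbered 0 and 8 against control and 0 and 7 against SRPIN340, and pathway genes 15 and 49 against control and 11 higher against SRPIN340. It reversed GLUD1 (-0.31), GLUL (-0.179) and SLC38A1 (-0.276) against control and GLUD1 (-0.392) and GLUL (-0.0828) against SRPIN340. With an absolute log2 fold change over 1, no member was higher in any comparison, and pathway genes were 7 higher and 17 lower in acidosis against control, 1 higher with SRPIN340, and 9 and 16 in acidosis against SRPIN340. Of genes passing with SRPIN340, 33.3% were higher, and 49.8% with library totals only. With only the 2 groups compared, 2 members were higher with SRPIN340. DESeq2 gave 6 pathway genes higher and 4 lower with SRPIN340.

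Same-numbered samples showed little common deviation (r of -0.115 to 0.063). With 2 samples each in control and SRPIN340, these values cannot decide whether the numbers pair the samples. With the replicate number as a block, 0 members and 1 pathway gene were higher with SRPIN340, where all genes passing went from 114 higher and 228 lower to 13 and 38, and GLUD1 in acidosis against SRPIN340 no longer passed (adjusted p = 0.0564, edgeR). The block leaves fewer degrees of freedom.

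Leaving out 1 sample at a time gave 0 members and 0 to 1 pathway genes higher with SRPIN340. It ended the call of GLUD1 against SRPIN340 without either SRPIN340 sample (adjusted p = 0.0666 and 0.0834, edgeR) and moved GOT1 there between -0.181 and 0.0604 without SRPIN340 replicate 1 and 2. Where 1 sample was left in a group, it was assumed to vary like the others. Among the alternative fold changes of the members, 267 kept their direction and call, 10 lost the call, 5 gained one and 6 reversed.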
